A study of Bos taurus with 8 samples.

Results

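Transcripts of 10 genes that make, cut, bind or organize hyaluronan were followed in mural granulosa cells of heat-stressed and pair-fed cows. The genes were the hyaluronan synthases HAS1, HAS2 and HAS3, the hyaluronidases HYAL1 and HYAL2, the matrix genes TNFAIP6, PTX3 and VCAN, and the receptor genes CD44 and HMMR. A gene was taken by its symbol in the annotation of the array, and where a symbol had several transcript clusters, meaning sets of probes for a transcript, the cluster with the highest mean signal was used. All 10 symbols were found, in 11 of the 26773 clusters, since HYAL1 had a second cluster. The table held 19929 distinct single symbols in all.

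Hyaluronan is an unbranched sugar polymer that synthases in the plasma membrane extrude into the extracellular space. Before ovulation, the surge of luteinizing hormone (LH) starts the deposition of a hyaluronan-rich matrix around the oocyte, and in mice this cumulus matrix fails when Tnfaip6 or Ptx3 is missing. TNFAIP6 transfers protein chains onto hyaluronan, PTX3 takes part in cross-linking these chains, versican binds the polymer along its length, and hyaluronidases cut it.

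The cells came from 8 non-pregnant German Holstein cows in the second lactation, 4 in each group, and every cow gave an array of its own. Cows of the heat stress (HS) group were kept at 28°C and 52% relative humidity, and pair-fed (PF) cows at 15°C and 64% relative humidity with feed restricted to the intake of the HS cows. By the labels the climate lasted 96 h. All cows received 500 µg of prostaglandin F2α and, 49 h later, 100 µg of a GnRH analog to induce the LH surge. In both groups slaughter, at which the cells were taken, came 72 h after prostaglandin F2α and thus after the GnRH analog. Cells were scraped from the opened wall of the largest growing follicle, after the cumulus-oocyte complex had been aspirated with the fluid, so genes known for the cumulus were measured here in the mural layer. Arrays are called PF1 to PF4 and HS1 to HS4 after group and replicate number.

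A single pair of designed sequences bears on these genes. The study measured HAS3 by quantitative PCR as well, and the primers are shown because they name the HAS3 transcript independently of the array probes. The PCR values are not analysed here.
HAS3 forward primer: gtggggaggcaagcgagagg
HAS3 reverse primer: aggatttggacatctcccccgac
The forward primer has 20 bases and the reverse primer 23.

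Signals are log2 values of the robust multichip average (RMA), so 1 unit is a doubling. Array medians lay between 5.33 and 5.44 in PF and between 5.27 and 5.37 in HS. Granulosa markers were present on every array, and none of the 13 stayed below the array median throughout. Their mean was 8.02 to 8.71 in PF and 8.81 to 9.49 in HS, without overlap. Of the 13 markers 12 had higher means in HS. Only 2 of them lay above PF on every HS array, as did 2.64% of all clusters. All 12 fibroblast and smooth muscle markers, all 10 endothelial, all 14 myeloid and all 16 lymphocyte markers had lower means in HS. Theca markers did not follow this, with 3 of 5 higher and 2 lower in HS. Their mean was 6.77 to 8.32 in PF and 7.55 to 8.28 in HS. Over all 26773 clusters, 12306 had higher and 14467 had lower means in HS. PF3 stood apart. On this array the myeloid list averaged 8.02, against 5.64 to 6.97 on the other 7, and the list of genes induced by the LH surge averaged 6.18, against 6.96 to 7.95. In bulk RNA, fewer cells of a type and less RNA per cell cannot be told apart.

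**Figure D1:**
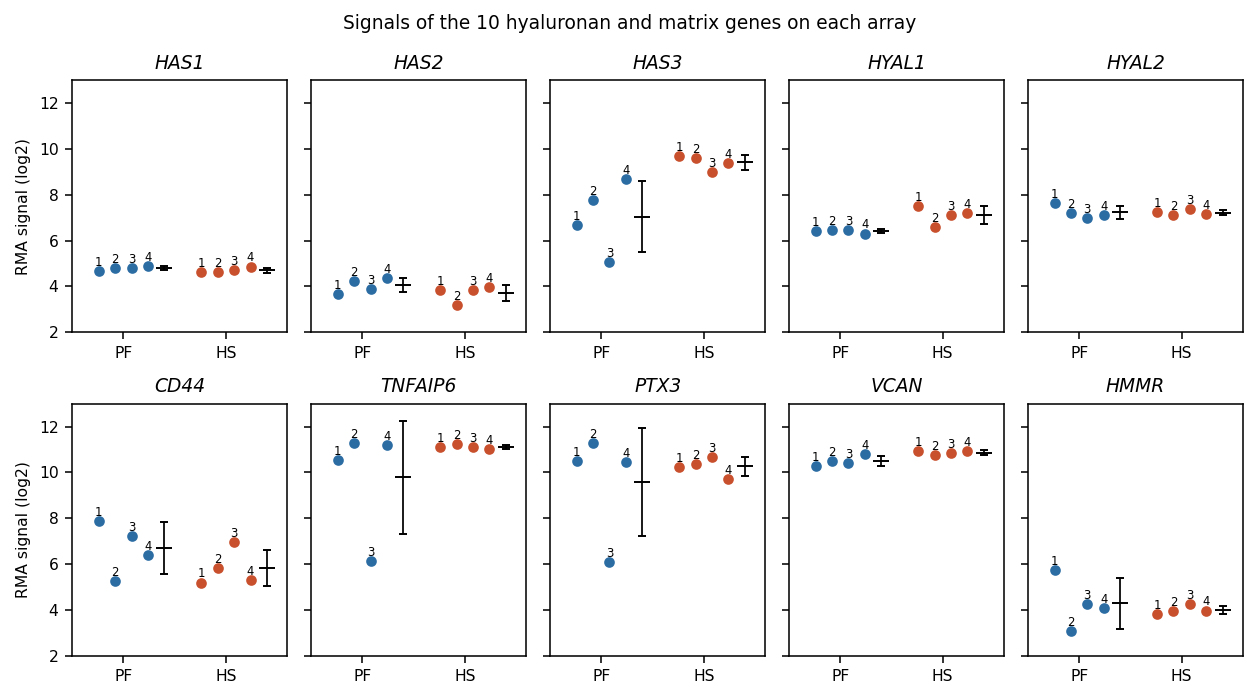
RMA signal (log2, vertical axis) of the 10 genes on each array, with PF in blue, HS in red and the replicate number above each point. Horizontal bars with whiskers give mean and SD of 4 arrays. HAS3 on the 4 HS arrays lies at 8.98 to 9.69, above all PF arrays, and TNFAIP6 and PTX3 on PF3 lie near 6 while every other array is at 9.72 or above.

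In the cluster used for each gene, HAS3 and HYAL1 were higher in HS than in PF on every array. None of the other 8 genes separated the groups. HAS3 was 5.17-fold and HYAL1 1.62-fold higher by the group means. Both passed the thresholds of the study, an absolute fold change above 1.5 with an unadjusted p under 0.05, and no gene passed in the lower direction. Across the array 1.58% of clusters passed as higher and 0.627% as lower. No cluster passed an adjusted p of 0.05 in limma, where 1928 clusters had an unadjusted p under 0.05 and the smallest adjusted p was 0.600. The methods' t-test, with 1.00% of clusters higher and 0.325% lower, called the same 2 of the 10 genes. The study had named both genes as changed on these same arrays, so their calls are not independent evidence.

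Among the synthases, HAS3 separated the groups most. It measured 6.69, 7.76, 5.07 and 8.67 on PF1 to PF4 and 9.69, 9.61, 8.98 and 9.40 on HS1 to HS4. The HS arrays lay close together and all above the PF arrays, which were spread widely, and the lowest HS array exceeded the highest PF array by 0.31. Group means were 7.05 ± 1.54 in PF and 9.42 ± 0.32 in HS (SD, n = 4 each), so the SD in PF was 4.89 times that in HS. The difference was 2.37 (SE 0.67, 95% interval 0.83 to 3.91), with an adjusted p of 0.683 in limma. In the exact two-sided permutation test p was 0.0286, the smallest that 4 arrays against 4 can give over 70 assignments. This was the largest positive log2 difference among the 423 clusters that passed as higher in HS.

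The lowest HAS3 signal was that of PF3, the only array on which HAS3 lay below the array median. Without PF3 the PF mean was 7.71 ± 0.99 (SD, n = 3), and the difference was 1.71 (95% interval 0.74 to 2.69), a 3.28-fold change with an adjusted p of 0.264 in limma. Without PF1 and PF3 the difference was 1.21, a 2.31-fold change, and with array weights it was 1.33. HAS3 stayed past the study thresholds in each of the 8 fits that left out a single array. In those fits the difference ran from 1.71 without PF3 to 2.91 without PF4, whose signal of 8.67 was nearest to the HS group. The mean over the granulosa markers separated the groups in the same direction as HAS3 and HYAL1, although only 2 of the 13 markers did so singly. The part of granulosa RNA in the HAS3 and HYAL1 results was not tested.

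HAS2, the synthase of the cumulus matrix in mice, and HAS1 gave weak signals. HAS2 measured 3.69, 4.24, 3.90 and 4.35 in PF and 3.83, 3.20, 3.84 and 3.99 in HS. Every value was below the median of its array, and the groups overlapped, with HS2 lowest and PF4 highest. The means were 4.04 ± 0.31 and 3.71 ± 0.35 (SD, n = 4 each), a difference of -0.33 (SE 0.21, 95% interval -0.81 to 0.16) with an adjusted p of 0.709 in limma. When arrays were weighted by their fit, HAS2 passed the study thresholds as lower in HS, at -0.61, whereas without HS2 the difference was -0.16. Without PF1 and PF3 it was -0.58, just short of the fold threshold, with an unadjusted p of 0.0346 and an adjusted p of 0.446 in limma.

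HAS1 measured 4.67, 4.80, 4.81 and 4.87 in PF and 4.65, 4.63, 4.70 and 4.87 in HS. These too were below the array median on all 8 arrays, and the values of both groups covered nearly the same range. The difference was -0.076 (SE 0.10, 95% interval -0.29 to 0.14), with an adjusted p of 0.827 in limma. Signals this low say little about whether HAS1 and HAS2 were expressed in the mural cells.

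Of the hyaluronidases, which split hyaluronan into shorter chains, HYAL1 was higher in HS and HYAL2 was not. HYAL1 encodes the lysosomal enzyme. It measured 6.41, 6.46, 6.47 and 6.31 in PF and 7.52, 6.61, 7.13 and 7.19 in HS. The PF arrays differed little among themselves, HS1 was highest, and HS2 was only 0.13 above the highest PF array. The means were 6.41 ± 0.08 and 7.11 ± 0.38 (SD, n = 4 each), a difference of 0.70 (SE 0.18, 95% interval 0.28 to 1.11). The adjusted p was 0.641 in limma, and the exact two-sided permutation test again gave its smallest p, 0.0286.

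HYAL1 passed the study thresholds in 7 of the 8 fits that left out an array. Without HS1 the difference was 0.56, below a 1.5-fold change. The second HYAL1 cluster measured 5.66, 5.73, 5.56 and 5.74 in PF and 6.40, 5.71, 6.06 and 6.24 in HS. Here HS2 lay within the PF range while the other HS arrays lay above it, the order of the HS arrays by signal was the same in both clusters, and the difference of 0.43 (SE 0.15, 95% interval 0.08 to 0.78) did not reach the fold threshold. Averaged over both clusters, HYAL1 measured 6.04 ± 0.04 in PF and 6.61 ± 0.34 in HS (SD, n = 4 each), a difference of 0.56.

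The annotation placed the first HYAL1 cluster on the plus strand at chr22:50600489-50601799 of the bovine assembly UMD3.1, and did not say which exons its probes covered. In the RefSeq gene order of assembly ARS-UCD2.0, HYAL1 lies between HYAL2 and HYAL3. HYAL2 encodes a hyaluronidase anchored to the cell surface. It measured 7.64, 7.19, 6.998 and 7.12 in PF and 7.26, 7.11, 7.36 and 7.15 in HS. All HS values lay inside the PF range, and the difference was -0.017 (SE 0.15, 95% interval -0.36 to 0.32) with an adjusted p of 0.982 in limma. By its first cluster, though not by its second, HYAL1 was thus higher in HS on every array. Its neighbour HYAL2 showed a difference close to 0, whose sign turned, to 0.041, when the array medians were subtracted.

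**Figure D2:**
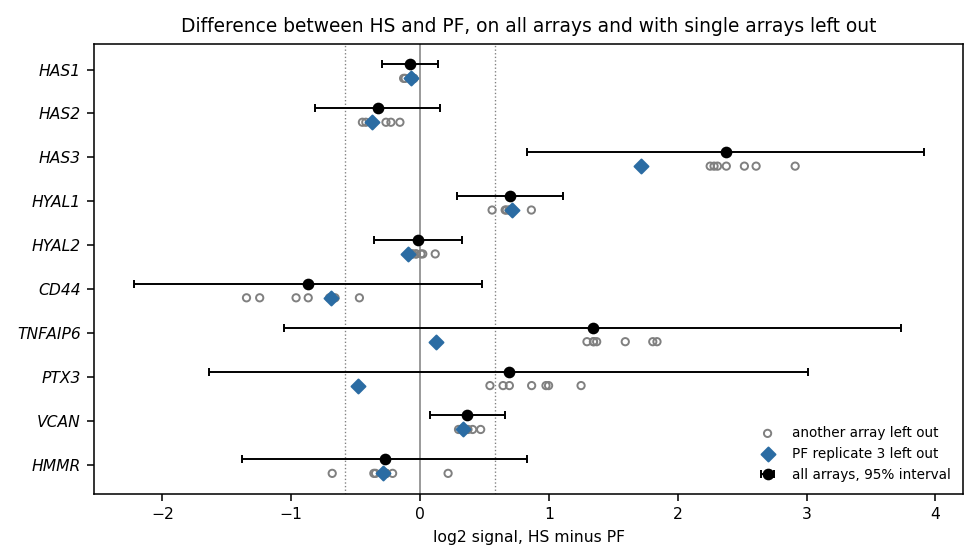
Difference between HS and PF (log2 signal, horizontal axis) for the 10 genes, with black points and 95% intervals from all 8 arrays, blue diamonds without PF3 and open circles with another single array left out. Dotted lines mark a 1.5-fold change. HAS3 stays right of the line in every fit, whereas TNFAIP6 moves from 1.34 to 0.12 and PTX3 from 0.69 to -0.48 once PF3 is left out.

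The genes that assemble the matrix, TNFAIP6, PTX3 and VCAN, gave strong signals, and in none of them did the groups separate. TNFAIP6, which encodes the protein TSG-6, measured 10.54, 11.28, 6.12 and 11.18 in PF and 11.10, 11.25, 11.10 and 11.03 in HS. PF3 alone was low, 4.88 log2 units below the mean of the other PF arrays, and the HS values all lay within the PF range. The means were 9.78 ± 2.46 and 11.12 ± 0.10 (SD, n = 4 each), and the difference was 1.34 (SE 1.05, 95% interval -1.05 to 3.73) with an adjusted p of 0.740 in limma. Without PF3 the PF mean was 10.999 ± 0.40 (SD, n = 3) and the difference 0.12 (95% interval -0.30 to 0.54). The TNFAIP6 transcript was annotated on the minus strand at chr2:44850892-44867293 of UMD3.1.

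PTX3, the long pentraxin, repeated this pattern. It measured 10.51, 11.26, 6.08 and 10.45 in PF and 10.24, 10.39, 10.69 and 9.72 in HS. PF3 was again the only low array, 4.66 log2 units below the mean of the other PF arrays, and PF2 was the highest of all 8. The means were 9.57 ± 2.36 and 10.26 ± 0.41 (SD, n = 4 each), a difference of 0.69 (SE 1.02, 95% interval -1.64 to 3.01) with an adjusted p of 0.857 in limma. Without PF3 the PF mean was 10.74 ± 0.46 (SD, n = 3), and the difference turned to -0.48 (95% interval -1.11 to 0.15).

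VCAN, the gene of the proteoglycan versican, measured 10.29, 10.48, 10.41 and 10.81 in PF and 10.93, 10.74, 10.85 and 10.94 in HS. All HS arrays lay above PF1 to PF3, and the groups overlapped only because PF4 exceeded HS2 by 0.07. The means were 10.50 ± 0.22 and 10.86 ± 0.09 (SD, n = 4 each). The difference was 0.37 (SE 0.13, 95% interval 0.08 to 0.66), a 1.29-fold change below the fold threshold. The adjusted p was 0.683 in limma, and the exact two-sided permutation test gave p = 0.0571. VCAN was with HAS3 and HYAL1 one of 3 genes with an unadjusted p under 0.05 in limma, as were 7.20% of all clusters, and its difference ran from 0.30 to 0.47 when single arrays were left out. With array weights it was 0.17, and without PF1 and PF3 it was 0.22, both with an unadjusted p above 0.05 in limma.

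Among the receptors, CD44, the main cell surface receptor for hyaluronan, varied widely within both groups. It measured 7.88, 5.25, 7.21 and 6.41 in PF and 5.19, 5.82, 6.95 and 5.32 in HS. The arrays of both groups were interleaved, with PF1, PF3 and HS3 highest and PF2 and HS1 lowest. The means were 6.69 ± 1.13 and 5.82 ± 0.80 (SD, n = 4 each), a difference of -0.87 (SE 0.59, 95% interval -2.22 to 0.48) with an adjusted p of 0.717 in limma. Without PF2 the difference was -1.35 and passed the study thresholds with an adjusted p of 0.397 in limma. Without PF1 it was -0.47, and without PF1 and PF3 it was -0.011.

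The order of the arrays by CD44 followed that of the stromal markers. The 12 fibroblast and smooth muscle markers averaged 9.66, 8.77 and 8.86 on PF1, PF3 and HS3, their 3 highest arrays, and were lowest on PF2 and HS1 at 7.38 and 6.88. Endothelial markers were lowest on the same pair, at 5.51 and 5.33. The decorin gene DCN, a marker of fibroblasts, measured 11.42, 8.99, 10.92 and 10.75 in PF and 8.45, 10.32, 10.74 and 8.93 in HS. The part of stromal RNA in the CD44 difference was not tested.

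HMMR encodes a hyaluronan receptor that also acts at the mitotic spindle. It measured 5.75, 3.05, 4.23 and 4.06 in PF and 3.82, 3.97, 4.25 and 3.97 in HS. PF1 was the highest array and the only one above its array median, while the other PF arrays lay at 3.05 to 4.23, around the HS values. The difference was -0.28 (SE 0.48, 95% interval -1.38 to 0.83) with an adjusted p of 0.885 in limma, and it was 0.22 without PF1. The 20 proliferation markers were likewise highest on PF1, with a mean of 7.17 against 4.93 to 5.93 on the other 7 arrays, and lowest on PF2. The part of proliferating cells in the HMMR signal was not tested.

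**Figure D3:**
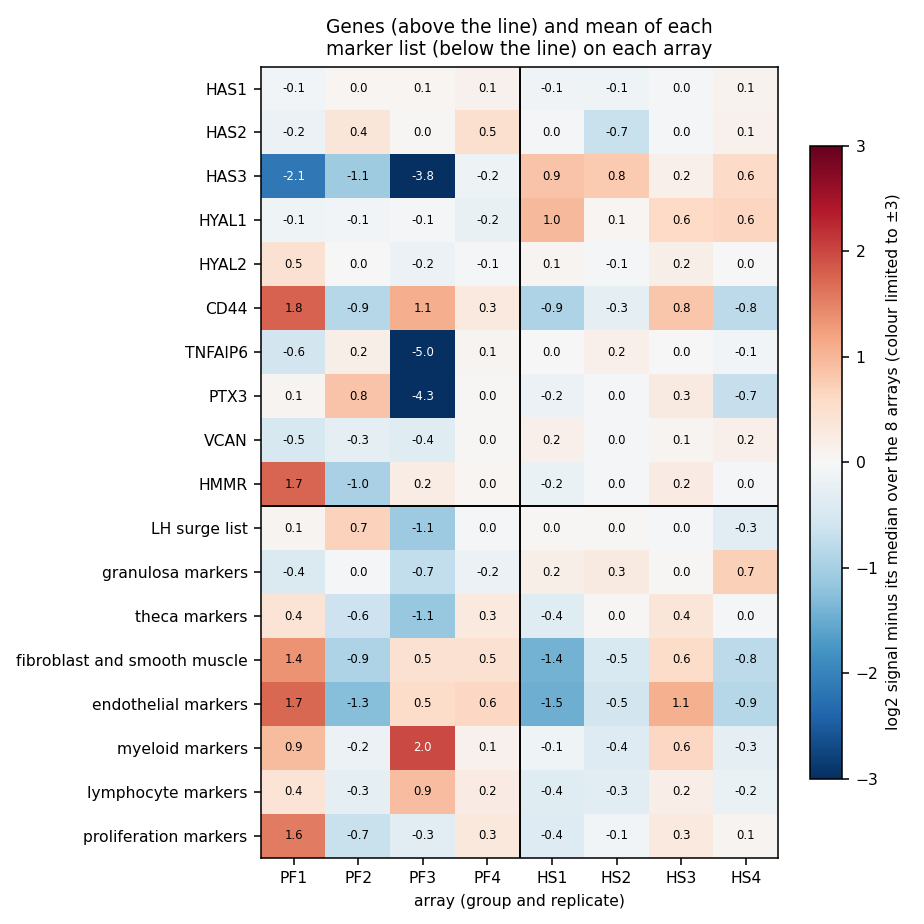
Deviation of the log2 signal from its median over the 8 arrays (colour and printed value) for the 10 genes above the line and for the mean of each marker list below it, with arrays in columns. The dark blue cells on PF3 are HAS3, TNFAIP6 and PTX3, the red cells on PF1 include CD44, HMMR and the stromal and proliferation lists, and myeloid markers are highest on PF3.

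Across the 10 genes, 5 had higher and 5 lower means in HS. The median difference was 0.17, against -0.019 over all clusters. HAS3 and HYAL1 were the 2 genes without overlap between groups, both with HS above PF, as were 2.64% of all clusters, while 2.00% had HS below PF. PF3 was the lowest of the 8 arrays for 4 genes, HAS3, HYAL2, TNFAIP6 and PTX3, and for 22.8% of all clusters. TNFAIP6 and PTX3 belonged to only 21 clusters, 0.0784% of the array, in which PF3 lay more than 4 log2 units below the mean of the other PF arrays. Without PF3 the genes past the study thresholds were again HAS3 and HYAL1, with 2.69% of all clusters higher and 0.698% lower. PF3 carried the highest myeloid mean and the lowest granulosa mean, 8.02 each. The granulosa markers were not uniformly low there, since PF3 was the lowest of the 8 arrays for 7 of the 13. The inhibin alpha gene INHA, one of these 7, measured 8.005 on PF3 against 10.47 to 11.37 on the other arrays. FOXL2, another granulosa marker, was highest on PF3 at 8.25. The part of myeloid and granulosa cells in the PF3 values was not tested.

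The LH surge list holds genes that granulosa cells induce before ovulation. Of the 19 measured genes of this list 6 had higher and 13 lower means in HS, with a median difference of -0.19. Only 1 of the 19 passed the study thresholds, as lower in HS, as did 0.627% of all clusters. PF3 was lowest of the 8 arrays for 7 of the 19. The prostaglandin synthase gene PTGS2 was 1 of these 7, at 3.46 on PF3 against 10.03 to 11.02 on the other arrays. Prostaglandin E synthase, PTGES, measured 10.17, 10.82, 6.69 and 11.22 in PF and 11.23, 11.30, 11.22 and 11.05 in HS, low on PF3 as TNFAIP6 and PTX3 were. EREG, which encodes the growth factor epiregulin, measured 5.70, 9.13, 3.89 and 4.67 in PF and 6.07, 5.58, 5.43 and 5.25 in HS. EREG was highest on PF2, the array with the highest PTX3 and TNFAIP6, and lowest on PF3. The cluster matched to AREG, which encodes amphiregulin, carried the symbol AREGB. It was weak on all arrays at 2.27 to 3.14, which says little about whether AREG was expressed.

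Beyond these genes, 45 others of the hyaluronan pathway were measured, and none passed the study thresholds. Across the array 1.58% of clusters passed as higher and 0.627% as lower, so none among 45 says little. Means were higher in HS for 14 and lower for 31, against 12306 and 14467 of all clusters. The median difference was -0.13, and HABP4, at 0.33, was the only gene with an unadjusted p under 0.05 in limma. Of all clusters 7.20% had such a p.

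Enzymes that supply the sugar precursors were split evenly, with 5 of 10 higher in HS and a median of 0.066. GPI, the glycolytic isomerase, had a mean difference of 0.60 with an adjusted p of 0.683 in limma. GFPT2, which commits sugar to hexosamine synthesis, measured 9.996, 10.47, 5.998 and 9.05 in PF and 9.46, 9.66, 9.54 and 9.19 in HS. Its HS arrays lay within the PF range, and PF3 was the low array once more.

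Of 6 further genes of hyaluronan degradation, 3 were higher and 3 lower in HS. GUSB, the lysosomal beta-glucuronidase, measured 9.25, 10.53, 8.09 and 10.32 in PF and 10.51, 10.68, 10.39 and 10.40 in HS. PF1 and PF3 were low, the other PF arrays were close to the HS arrays, and the difference of 0.95 had an adjusted p of 0.683 in limma.

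All 8 genes listed as further receptors had lower means in HS, with a median of -0.37 and none past the thresholds. All fibroblast, smooth muscle, endothelial, myeloid and lymphocyte markers also had lower means in HS. The part of these cell types in the receptor values was not tested. LYVE1, the receptor of lymphatic endothelium, measured 9.498, 6.40, 7.59 and 7.10 in PF and 6.10, 6.19, 8.71 and 6.16 in HS. PF1 and HS3 were the highest arrays for LYVE1, as for the endothelial markers. PTPRG, a receptor phosphatase, differed by -0.34. The mean of the 8 listed genes was highest on PF1 and HS3 and lowest on PF2 and HS4.

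The 15 genes listed for other hyaluronan-binding proteins were mostly weak, and 9 stayed below the array median throughout. They included link proteins and inter-alpha-trypsin inhibitor chains, but not all of them encode matrix proteins. HAPLN3, a link protein gene, differed by -0.063. Of 6 versican-cleaving proteases, 1 was higher and 5 were lower in HS. ADAMTS9 measured 9.80, 9.83, 6.46 and 9.96 in PF and 10.03, 10.08, 10.001 and 10.12 in HS. The HS arrays lay narrowly above all PF arrays, PF3 far below, and the difference of 1.04 had an adjusted p of 0.722 in limma. ADAMTS15, named after its values were seen, was the only other gene of the 45 without overlap, at -0.26. Over all clusters, 2.64% had HS above PF without overlap and 2.00% had HS below PF. ADAMTS1, which cleaves versican in ovulating follicles of mice, differed by -0.51 with overlapping groups.

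**Figure D4:**
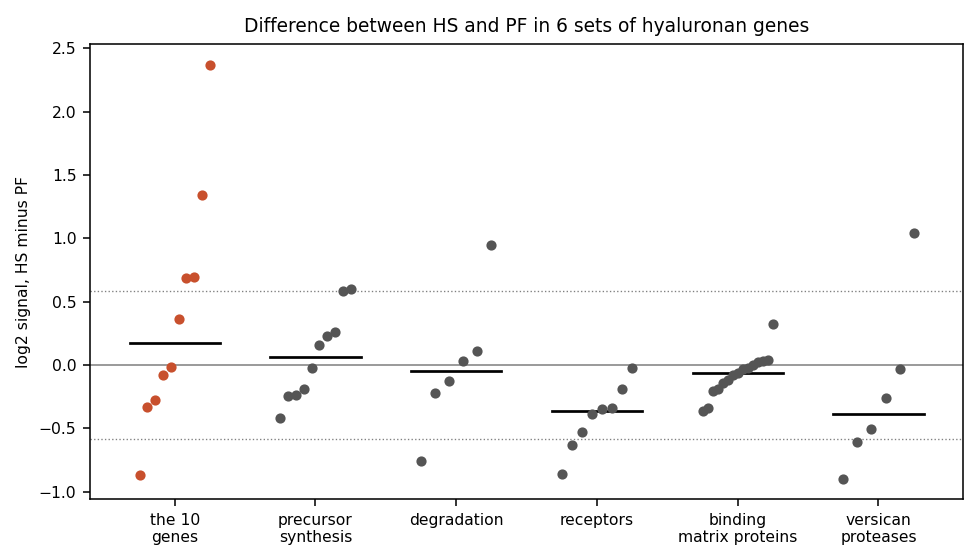
Difference between HS and PF (log2 signal, vertical axis) of each gene in 6 sets, with the 10 genes in red, the other hyaluronan genes in grey and a bar at the median of each set. Dotted lines mark a 1.5-fold change. HAS3 at 2.37 is the highest point, and all 8 genes listed as further receptors lie below 0.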

How the data were processed

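Total RNA of mural granulosa cells was hybridized to Bovine Gene 1.0 ST arrays. The authors processed the arrays with the Affymetrix Expression Console by RMA (background correction, quantile normalization and summary to transcript clusters) and deposited log2 values per cluster. Both tables hold the same values within 1.8e-15, which ran from 0.885 to 12.5. RMA brings the arrays to a common distribution, so differences are relative to the other clusters. A symbol was given for 20406 clusters, several for 168 and none for 6199.

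HS was compared with PF on all clusters and all 8 arrays in limma 3.58.1 (lmFit, then eBayes; R 4.3.3), unpaired, with Benjamini-Hochberg adjustment over all clusters and no filter. Fold changes compare means of log2 values. Single genes also had an exact permutation test of the difference in means, over all 70 assignments, in Python 3.11.15. The number of arrays limits the precision.

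The 10 genes and all lists were chosen with earlier results of these data known. Besides the 10 genes, the text names from each hyaluronan list the 2 genes with the highest mean, since none passed the thresholds. It also names single markers out of the 2 with the highest mean in their list, not always the highest, and PTGES, AREG, EREG and PTGS2. ADAMTS15 and FOXL2 were singled out after their values were seen. A gene that this rule names is not reported here. HYAL3 and HYAL4 were not analysed here, and promoter motifs were not searched. Symbols were matched through RefSeq where needed.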

Additional observations from a re-analysis of the deposited data

Results flagged for a closer look

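In groups of 4 arrays, the gap between an extreme array and its nearest neighbour was set against the range of the group, for 84 pairs of a named gene and a group. Chance marks about 1 in 20 such groups, and 8 of the 84 were marked, 2 of them among the 20 pairs of the 10 hyaluronan genes. In 4 of the 8, PF3 was the far array and lay low. TNFAIP6 measured 6.12 and PTX3 6.08 on PF3, the versican protease gene ADAMTS9 6.46, and the prostaglandin synthase gene PTGS2 3.46. On other arrays, the receptor gene LYVE1 stood high at 8.71 on HS3, the theca marker PTCH1 high at 9.45 on PF4, the replication gene PCNA high at 8.56 on PF1, and the haemoglobin gene HBA low at 4.59 on HS2.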

How the results depend on the processing

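Alternatives were array weights, the methods' t-test, an intensity trend in eBayes, subtracted array medians, a further quantile normalization, a floor on the mean log2 of 5, 1 cluster per symbol, the other deposited table, a replicate block and fits without some arrays. HAS3 kept its direction and stayed past the thresholds in all of them, although its difference of 2.37 was 1.33 with array weights and 1.21 without PF1 and PF3. VCAN stayed higher in HS and short of the fold threshold throughout, at 0.17 with array weights and 0.22 without PF1 and PF3. HAS1, HAS2 and HMMR drop out under the floor. The causes of the changes below were not tested.

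With array weights HAS2, at -0.61, was the 1 gene of the 10 past the thresholds as lower in HS, HYAL2 was 0.026, PTX3 -0.092, TNFAIP6 0.26, CD44 -0.49, HAS1 -0.14 and HMMR -0.046. With array medians subtracted HYAL2 was 0.041. The other HYAL1 cluster gave 0.43. Without PF1 and PF3 HAS2 was -0.58, just short of the fold threshold, HYAL2 0.065, TNFAIP6 -0.11, PTX3 -0.60 and HMMR 0.44. With single arrays left out, HAS2 ran from -0.45 to -0.16 (without HS2), HYAL1 from 0.56 (without HS1, no longer past the thresholds) to 0.86, HYAL2 from -0.10 to 0.12, CD44 from -1.35 (without PF2, past them) to -0.47, TNFAIP6 from 0.12 to 1.84, PTX3 from -0.48 to 1.25 and HMMR from -0.68 to 0.22. The genes past the thresholds then numbered 1 to 2 higher and 0 to 1 lower among the 10, 0 to 2 higher and 0 to 1 lower among the other hyaluronan genes, and 246 to 798 higher and 87 to 768 lower among all clusters, lowest without HS1 and highest without PF2.

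Over all clusters 423 passed as higher and 168 as lower, 71.6% and 28.4% of the calls. The methods' t-test, recomputed here on the deposited values, gave 268 and 87, which are not the study's own counts. With array medians subtracted there were 564 and 108, 83.9% and 16.1%.

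The replicate numbers are not stated to pair cows, and deviations of same-numbered arrays correlated between -0.27 and 0.21. With the replicate block HAS3 was 2.37 and HYAL1 0.70, and the block changed no call among the 10 genes, with 436 clusters higher and 233 lower. Signals below the array median, as for HAS1, HAS2 and most HMMR values, limit what can be seen there.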
